A study of Mus musculus with 2 samples.

Results

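Complement is a cascade of plasma proteins that tags microbes and dying cells for uptake and calls in leukocytes. C1q, assembled from A, B and C chains, starts the classical pathway. C3 and factor B form the convertase of the alternative pathway, which properdin stabilises. Cleavage of C3 and C5 releases the anaphylatoxins C3a and C5a, which are sensed by the receptors C3AR1 and C5AR1. Macrophages make several of these proteins and carry both receptors.

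This account covers 8 genes of that system: the C1q chains C1qa, C1qb and C1qc, the components C3, Cfb (factor B) and Cfp (properdin), and the receptors C3ar1 and C5ar1. They were picked by symbol from the list of members, and every probe set assigned to 1 of these symbols was taken. Of the 8 genes, 7 had such a probe set, 13 probe sets in all, out of 18193 genes and 34945 probe sets with a single symbol. C3 itself was not analysed here.

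The study used RAW264.7 cells, a mouse macrophage-like line transformed by a leukaemia virus, with a stable transfection of murine LXRα, a sterol-sensing nuclear receptor that works as a heterodimer with a retinoid X receptor (RXR). Both groups carried that transfection, and the labels do not say whether the line was 1 clone or a pool. One group received the solvent DMSO, and the other the LXR agonist GW3965 at 1 µM with the RXR agonist LG268 at 100 nM, each for 24 h. RNA of each group was hybridised to 1 Affymetrix whole-genome mouse array, so there was no replicate check, no test was possible, and every difference below is between these 2 arrays. The 2 ligands were given together, so their separate effects cannot be told apart.

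Values are MAS5 signals in arbitrary units, scaled to the same trimmed mean of 2500 on both arrays. The median over the non-control probe sets of both arrays, 276.4, served as a floor; a gene whose probe set of highest mean signal is above it on at least 1 array is called measured, and no fold is given for a gene below it on both. All 8 macrophage markers checked, among them Csf1r, Cd68, Lyz2 and Cd14, were measured, with signals from 7730 to 150697 with DMSO and from 11798 to 164189 with the ligands. Markers of other cells lay near or below the floor: the array covered 6 hepatocyte markers, of which 1 was measured, 7 lymphoid markers (1 measured), 7 of granulocytes and mast cells (3 measured) and 8 of fibroblasts (2 measured), and none of these exceeded 456 on either array by the probe set read for the gene. The median log2 ratio of the macrophage markers was 0.09, with Mpeg1 the highest at 2.03-fold and Fcgr1 next at 1.53-fold; their part in the values below was not tested. The known LXR targets Abca1, Abcg1, Srebf1 and Mylip were all over 2-fold higher with the ligands, by 2.65-fold for Mylip up to 27.2-fold for Abca1. The spread of single probe sets was estimated from 4866 genes that had a pair of probe sets measured on each array. It gave an SD of 0.28 for a probe set's log2 ratio, or 0.23 over the 3560 genes whose pair had mean signals above 1000. This SD covers measurement within the arrays and not the variation between cultures.

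C5ar1, the receptor for C5a, had the highest ratio of the complement genes measured, and was more than 2-fold higher with the ligands by both of its probe sets. Properdin was higher as well by its bright probe set, C3ar1 was slightly higher, and the C1q chains and factor B were below the floor with and without the ligands. Counted by the probe set of highest mean signal, 11077 of all 18193 genes were measured, and 3 of the 7 complement genes. Of these, C5ar1 and Cfp passed 2-fold in the higher direction (2 of 3) and 0 in the lower. Over all 11077 measured genes, 1.67% passed 2-fold in the higher direction and 0.776% in the lower. For the 3 genes the log2 ratio had a median of 1.03, against -0.03 for all measured genes. That median is the value of the bright Cfp probe set. With the mean over the probe sets of each gene it was 0.43 and the count at least 2-fold higher was 1, and with no floor, over 7 genes, the median was 0.34. In RNA from a whole culture, more RNA per cell and more cells with the transcript cannot be told apart. A count over 3 genes that the floor left is a description and carries no weight beyond the single values. The members were also chosen with earlier results of these data known, so the count is no blind comparison with the all-gene share.

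To show where the 3 measured genes begin, 250 bases before the annotated start are printed here for each, 5′ to 3′ on the gene's strand, from the RefSeq promoter table of build GRCm38.p6. All 3 genes lie on the minus strand: C5ar1 at chr7:16259339-16259588, Cfp at chrX:20931556-20931805 and C3ar1 at chr6:122856158-122856407. For C5ar1 the start used lies 202 bases inside the outermost annotated end of the gene. The 202 bases of its window nearest to that start are therefore within the gene as annotated. Capitals mark matches, on either strand, to AGGTCA (the half-site of nuclear receptors such as LXR and RXR), GAGGAA (a purine-rich core bound by the macrophage factor PU.1), AGGAAG (a core of the ETS family, to which PU.1 belongs) or TATAAA (the TATA box).
C5ar1: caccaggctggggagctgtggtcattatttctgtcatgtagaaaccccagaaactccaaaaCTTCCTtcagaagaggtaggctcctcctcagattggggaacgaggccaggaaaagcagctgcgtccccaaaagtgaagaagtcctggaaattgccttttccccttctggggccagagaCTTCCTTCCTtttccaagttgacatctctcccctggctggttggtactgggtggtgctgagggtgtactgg
Cfp: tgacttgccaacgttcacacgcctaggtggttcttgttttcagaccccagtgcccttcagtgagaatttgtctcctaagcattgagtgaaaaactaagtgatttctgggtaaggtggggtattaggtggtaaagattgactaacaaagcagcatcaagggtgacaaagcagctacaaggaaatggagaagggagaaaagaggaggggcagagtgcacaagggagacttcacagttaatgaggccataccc
C3ar1: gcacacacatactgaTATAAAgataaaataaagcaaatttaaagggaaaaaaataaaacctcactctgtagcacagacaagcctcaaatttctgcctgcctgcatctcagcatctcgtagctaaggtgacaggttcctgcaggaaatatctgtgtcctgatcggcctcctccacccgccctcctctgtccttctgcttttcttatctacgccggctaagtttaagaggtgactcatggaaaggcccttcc

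The C5ar1 window held 3 matches to AGGAAG, all on the opposite strand, the last 2 of which overlap each other between 71 and 62 bases before the start. All 3 lie in the 202 bases that are within the gene as annotated. C3ar1 had 1 TATAAA, from 235 to 230 bases before the start, and Cfp had none of the 4 motifs. None of the 3 windows held an AGGTCA half-site, and none held a pair of them in the same direction 4 bases apart, the arrangement LXR and RXR bind together. Of 32851 promoter windows cut the same way, 29.5% held AGGAAG, 23.3% GAGGAA, 14.0% AGGTCA, 12.4% TATAAA and 0.0152% the spaced pair; AGGAAG and GAGGAA can overlap. Only exact matches were sought, so a half-site or pair with any letter changed would be missed. A match here is a string of letters, and its absence says nothing of binding in these windows or elsewhere.

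The receptors of the anaphylatoxins differed from each other. C5ar1 encodes the G-protein-coupled receptor through which C5a draws in and activates phagocytes. Its brighter probe set read 3226 with DMSO and 10930.5 with the ligands. Its other probe set read 2880.2 with DMSO and 7752 with the ligands. Both were therefore far above the floor on each array and higher on the ligand array, by 3.39-fold and 2.69-fold. Their log2 ratios, 1.76 and 1.43, lay 0.33 apart, where the difference between such a pair had an SD of 0.40 over the 4866 genes. Among measured genes, 41 had a larger ratio than C5ar1. Of 47 genes at least 2-fold higher by the brighter of such a pair of probe sets, 29 were so by both, as C5ar1 was.

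C3ar1 encodes the receptor for C3a, which acts on many of the same cells. Its 3 probe sets had signals of 2084, 1769 and 1653 with DMSO. With the ligands the same probe sets read 2599, 2033 and 1928. Each was higher on the ligand array, with log2 ratios of 0.32, 0.20 and 0.22, about the size of the probe set SD of 0.23 for bright probe sets. The gene was thus 1.25-fold higher by its brightest probe set, and 1764 measured genes had a larger ratio. Even the lower log2 ratio of C5ar1 exceeded the highest of C3ar1 by 1.11, and the genes' brightest probe sets differed by 1.44. Without a second array per group this gap between the receptors has no test.

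**Figure D1:**
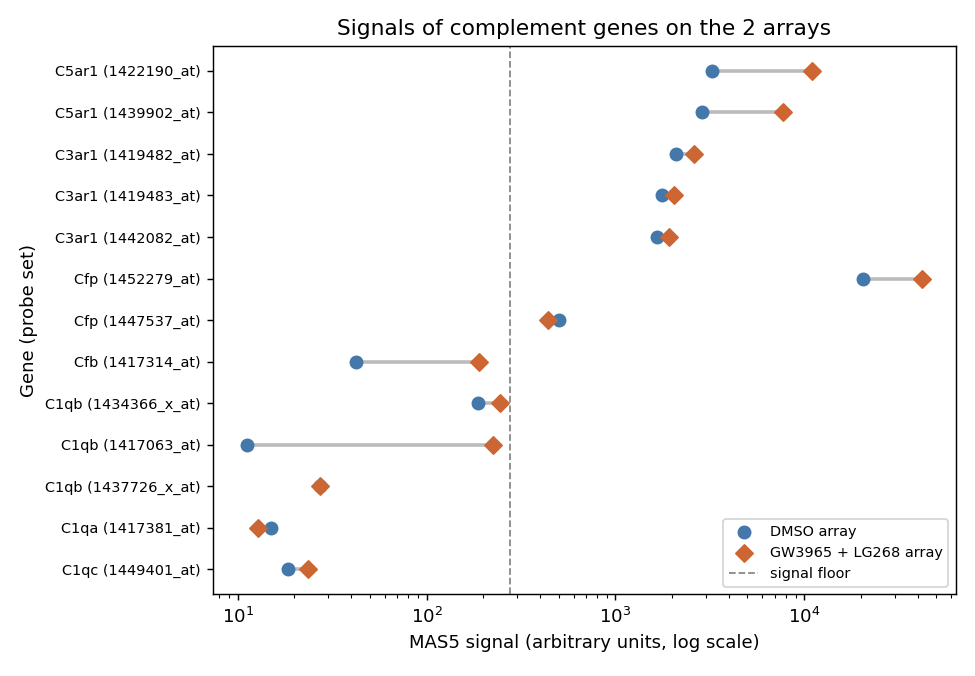
MAS5 signal (arbitrary units, log axis) of each of the 13 probe sets of the 7 complement genes on the DMSO array (circles) and on the GW3965 and LG268 array (diamonds); the dashed line is the floor of 276.4, and the circle of the third C1qb probe set is hidden behind its diamond. Both C5ar1 probe sets and the brighter Cfp probe set are shifted to the right with the ligands, while the points of the C1q chains and Cfb all lie left of the floor.

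Cfp encodes properdin, the positive regulator of the alternative pathway, which leukocytes secrete. Its bright probe set read 20448 with DMSO and 41819 with the ligands, 2.05-fold higher, and 170 measured genes had a larger ratio. A second probe set, with signals not far above the floor, read 500.1 with DMSO and 441 with the ligands, a log2 ratio of -0.18. The probe sets of Cfp did not share a direction, and their log2 ratios were 1.21 apart. A gap of that size or larger was found in 52 of the 4866 genes with such a pair of probe sets, 1.07%. Averaged over both probe sets, the log2 ratio of Cfp was 0.43, below 2-fold. All 3 measured genes had a brighter signal above the 75th percentile of probe sets; of the 6967 genes with such a signal, 1.42% were at least 2-fold higher. Counted by probe set, 3 of the 7 measured probe sets of these genes were at least 2-fold higher, against 1.80% of all measured probe sets. Both probe sets of C5ar1 are among the 3, so that gene enters the count more than once. Probe sets of the same gene are not independent.

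**Figure D2:**
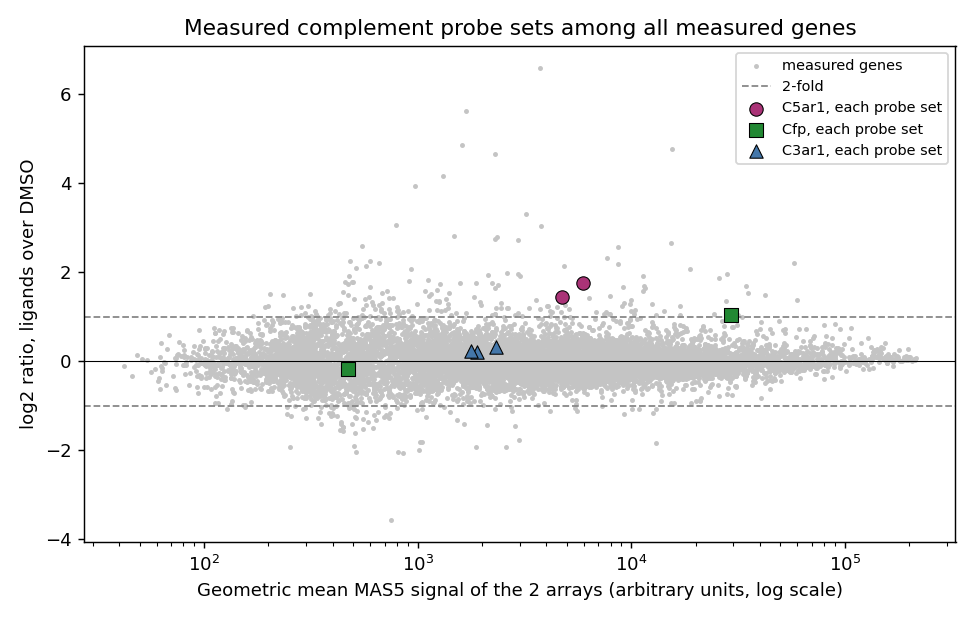
The log2 ratio of ligands over DMSO against the geometric mean MAS5 signal of both arrays (arbitrary units, log axis) for the 11077 measured genes (grey, 1 point a gene) and for each measured probe set of C5ar1, Cfp and C3ar1; dashed lines mark 2-fold. The C5ar1 points, at 1.76 and 1.43, both lie above the 2-fold line, the Cfp points are split between 1.03 and -0.18, and the C3ar1 points lie between 0.20 and 0.32.

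The chains of C1q, which binds antibody complexes and apoptotic cells, were not detected above the floor. C1qa read 15.1 with DMSO and 12.9 with the ligands, and C1qc 18.5 and 23.7. C1qb was covered by 3 probe sets. The brightest read 187 with DMSO and 245.5 with the ligands, the next 11.2 and 226, and the third 27.3 and 27.2. The second of these was the C1qb probe set that differed most between the arrays, but both of its signals lay below the floor and the other probe sets of the gene did not show such a difference, so no fold is given. The C1q genes lie side by side on chromosome 4 in the order C1qb, C1qc, C1qa, and no chain reached the floor on either array.

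Cfb encodes factor B, the serine protease of the alternative pathway convertase, and lies next to C2 on chromosome 17. Its single probe set read 42.1 with DMSO and 191 with the ligands. Both values lay below the floor, so Cfb was not counted as higher. With the floor lowered to the 25th percentile, 70.2, it was at least 2.71-fold higher, under a setting in which 8.32% of measured genes were at least 2-fold higher. Its neighbour C2, the matching protease of the classical pathway, was also below the floor, at 230.5 with DMSO and 93.0 with the ligands by its brightest probe set.

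The rest of the complement system was followed in 52 further genes, of which 42 had a probe set with 1 symbol and 12 were measured. Over the whole array, 11077 of 18193 genes with such a probe set were measured. None of the 12 was 2-fold apart, while 3 passed 1.5-fold upwards and 0 downwards. Of all measured genes, 1.67% were at least 2-fold higher and 0.776% lower. At these shares, none among 12 genes is no sign that they stayed unchanged. At 1.5-fold, 6.36% of all measured genes passed upwards and 4.77% downwards. The log2 ratio of the 12 genes had a median of 0.03, against -0.03 for all measured genes. The other 30 were below the floor on both arrays by the probe set read for each gene. Among initiators, 3 of 13 were measured: Fcna, a ficolin that triggers the lectin pathway (6487 with DMSO and 4951 with the ligands, log2 ratio -0.39), the ficolin-associated protease Masp2 (487 and 409, -0.25) and the C1 protease C1ra (569.8 and 603, 0.08). No terminal component of the 6 on the array was measured, and Hc, which encodes C5, the precursor of the C5AR1 ligand, read 34.1 with DMSO and 17.4 with the ligands. C4b and C5ar2, the second C5a receptor and the neighbour of C5ar1 on chromosome 7, were not analysed here.

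Other receptors for complement fragments gave a mixed picture. Itgb2 encodes the β2 integrin chain, shared by complement receptors 3 and 4, and was 1.85-fold higher (36199.9 with DMSO and 67148 with the ligands). Its partner in complement receptor 3, Itgam, had a log2 ratio of -0.21 (6424 and 5567). The partner in complement receptor 4, Itgax, was below the floor, at 111.6 with DMSO and 58.0 with the ligands, as was Vsig4, a receptor of tissue macrophages for C3 fragments, at 40.0 and 104.5. Lrp1, an endocytic receptor that takes part in C1q-mediated uptake, was 1.60-fold higher (14503 and 23199), and the log2 ratio of its second probe set was 0.62. Calr and C1qbp, which encode C1q-binding proteins of wide expression, had log2 ratios of -0.08 and -0.03. Cd93, once proposed as a C1q receptor, was below the floor by the probe set read for it (108 with DMSO and 96.5 with the ligands), while another of its probe sets read 349 with DMSO and 16.7 with the ligands, at least 1.26-fold lower. Of the 9 receptors on the array 5 were measured by the probe set read for each, and the 2 at least 1.5-fold higher were Itgb2 and Lrp1. Over all measured genes, 6.36% were at least 1.5-fold higher. A count over 5 genes is a description only.

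None of the 4 measured regulators, which protect cells from complement, was at least 2-fold apart. Among all measured genes, 1.67% were at least 2-fold higher and 0.776% lower. With shares this small, none among 4 genes is no sign that the regulators stayed unchanged. Cr1l, the rodent regulator Crry, had a log2 ratio of -0.07 by its brightest probe set (16089 with DMSO and 15323 with the ligands), although a weaker probe set was at -0.75. Cd59a, which blocks the membrane attack complex, had 1 probe set at 0.22 and another at -0.17. Cd46 was 1.53-fold higher at signals close to the floor (320 and 489). Cd55, the decay-accelerating factor, was below the floor on all 3 of its probe sets, so no fold is given. These read 26.4, 94.8 and 103 with DMSO and 221, 40.2 and 9.34 with the ligands, without a common direction. In all, 4 of 13 regulators were measured; the other was Clu, which encodes clusterin (297 and 327).

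**Figure D3:**
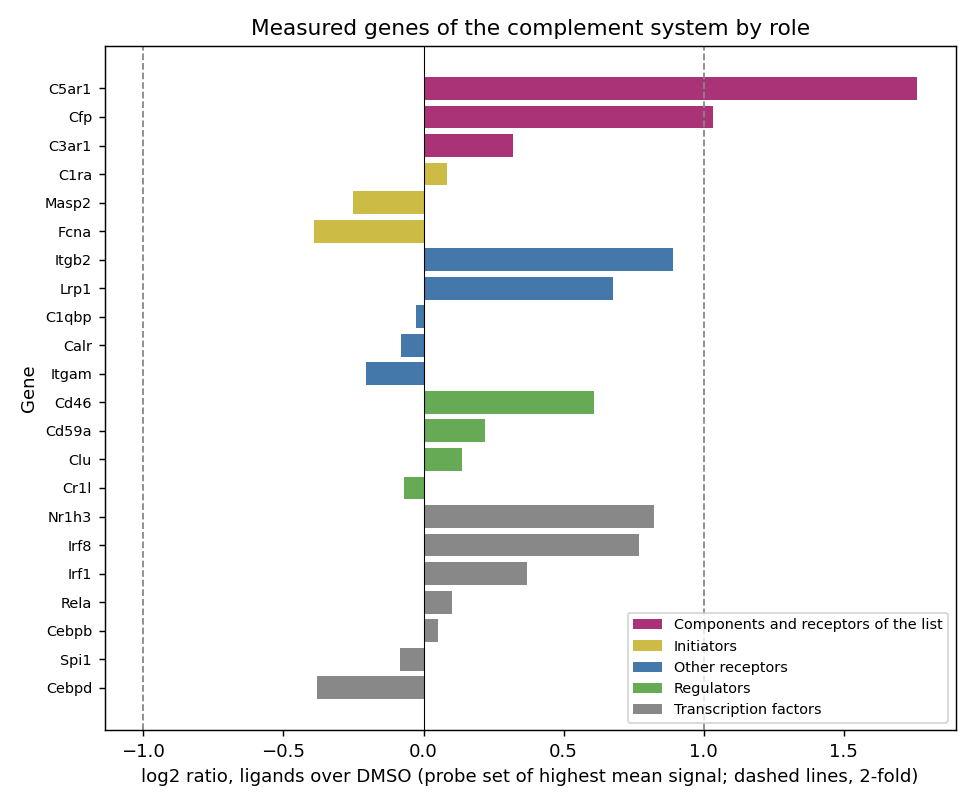
The log2 ratio of ligands over DMSO for each measured gene, by its probe set of highest mean signal, grouped by role in the complement system, with transcription factors known to act on complement genes below; dashed lines mark 2-fold. C5ar1 at 1.76 and Cfp at 1.03 are the only bars that pass a dashed line, and Itgb2 comes next among the complement genes at 0.89.

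Transcription factors known to act on complement genes were read alongside. Irf8, a factor of the myeloid lineage that acts on C1q genes, was 1.70-fold higher (9549 with DMSO and 16256 with the ligands), and the log2 ratio of its second probe set was 0.84. Spi1, which encodes PU.1, had a log2 ratio of -0.08. Cebpb and Cebpd, which act on C3, had 0.05 and -0.38, Irf1 had 0.37 and the NF-κB subunit Rela 0.10. A second Cebpb probe set was at 0.37 (6925 with DMSO and 8943 with the ligands). The transfected receptor's gene Nr1h3 had 0.82. Of 10 such factors 7 had a probe set with 1 symbol, and all 7 were measured. Of these, 0 were at least 2-fold apart, where 1.67% of all measured genes were 2-fold higher and 0.776% lower. With shares this small, 0 of 7 is no sign that the factors stayed unchanged.

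By the closeness of their log2 ratio over the 2 arrays, the genes most like C5ar1 among those above the floor on both were Exoc3l4, Slc7a7 and Dhrs3. Each had a log2 ratio of 1.75. With only 2 arrays this likeness is a similar ratio and nothing more.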

How the data were processed

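The deposited values are intensities, 1 linear signal per probe set, which the authors made with MAS5 (version not given in the sources used here), per the submitters' processing notes. MAS5 scales each array to a common level, so an overall change of RNA per cell would go unseen in the ratios. Detection calls were not used here. Probe sets were named from the platform annotation where it gives 1 symbol. Of these 34945 probe sets, 34741 were matched by gene identifier to GRCm38.p6. They took the symbol given there, whether or not it differed.

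Signals under the floor were raised to it before log2 ratios were taken. Each gene was read by the probe set with the highest mean log2 signal. Weak MAS5 signals are noisy, and the number of arrays limits the precision. The threshold was 2-fold, with no p-value. Named genes were the 8 members, 11 further complement genes fixed by name, complement genes at least 1.5-fold apart, 10 transcription factors, 4 LXR targets and the 3 genes closest to C5ar1; other measured complement genes and the markers quoted were named after their values were seen. The members and lists were chosen with earlier results of these data known. The ratio procedure was checked on simulated arrays. In 808 overlapping promoter windows of opposite strand, all 808 were reverse complements. Alternatives changed the floor, scaling, probe set choice and threshold. Python 3.11.15, numpy 2.4.6 and pandas 2.3.3 were used.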

Additional observations from a re-analysis of the deposited data

How the results depend on the processing

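The log2 ratios of C5ar1 and C3ar1 moved by less than the probe set SD in all 8 alternatives of floor, scaling and probe set choice, C5ar1 between 1.59 and 1.79 and C3ar1 between 0.25 and 0.35. That of Cfp did so in 7 and fell to 0.43 with the mean over probe sets. Several of these settings could not move C5ar1 or Cfp, whose bright probe sets pass each floor on both arrays. The other floors, the limit to genes above the floor on both arrays and leaving out _s_at, _x_at and _a_at probe sets left them at 1.76 and 1.03. Centring shifts every gene by the same amount. The number of settings passed is therefore no measure of robustness. The number of complement members at least 2-fold higher, 2 of 3, was 1 of 3 with the mean over probe sets and 1 of 3 at a 3-fold threshold, C5ar1 in both. Over all genes, 174 of 11136 and 55 of 11077 passed upwards in these settings. The member count was 3 of 5 with the lower floor and 3 of 7 with no floor, where Cfb was added. The members' median log2 ratio was 0.34 with no floor and 0.43 with the mean over probe sets. Of the other complement genes, 2 of 33 were at least 2-fold higher and 3 lower with the lower floor. With no floor and log2(signal + 32), 3 of 42 were higher and 4 lower. Over all genes, 1348 of 16210 were higher and 1335 lower with the lower floor. With no floor these all-gene counts were 1694 and 1685 of 18193. At 1.5-fold, 3 of 12 other complement genes passed upwards, against 6.36% of all measured genes. No member was at least 2-fold lower in any of the 10 alternatives. No paired analysis was possible because each group has 1 array. Signals of the C1q chains and Cfb lay below the main floor on both arrays, so no ratio is given for them at that setting.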
